A study of Mus musculus with 8 samples.

Results

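The genes described here are 10 named genes of the Notch pathway, namely the receptors Notch1, Notch2 and Notch3, the ligands Jag1 and Dll1, the DNA-binding partner Rbpj, and the target genes Hes1, Hes5, Hey1 and Heyl. They were taken by symbol, and all 10 were found among the 47729 genes of the NSC count table and the 40562 genes of the astrocyte count table. The mice carried S89G-DMP1, a point mutation of dentin matrix protein 1 knocked in at its own locus in every cell, or were wild type (WT). All were labelled C57BL/6 and 10 weeks old, and the methods describe homozygous mutants, wild-type C57BL/6 mice as controls, and mice aged 3 months of both genders for astrocyte culture. Neural stem cells (NSCs) of the sub-ventricular zone had been grown as neurospheres in DMEM/F12 with N2, with 3 S89G-DMP1 and 3 WT libraries. Astrocytes of the cortex had been grown in DMEM with 10% FBS, with 1 S89G-DMP1 and 1 WT library. Nothing states that the 3 libraries of a genotype came from separate mice or cultures, so the p-values measure the spread between these libraries, which may be technical.

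Notch receptors are membrane proteins that are activated by ligands of the Jagged and Delta-like families on a neighbouring cell. Ligand binding allows metalloprotease and gamma-secretase cleavage, and the released intracellular domain joins Rbpj and Mastermind proteins on DNA, where it turns on repressors of the Hes and Hey families. In the brain the pathway is known for keeping neural stem cells from differentiating, for favouring glial over neuronal fates, and for its part in mural and endothelial cells of blood vessels.

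The promoters of 3 genes are shown because Notch1 and Jag1 passed the test in NSCs, and of the promoters found here, the one of Hes5 alone held the longer motif bound by Rbpj. Each covers 250 bases before and 50 bases after the start site, read 5′ to 3′ on the strand of the gene, from RefSeq on GRCm38.p6. Capitals mark every match, on either strand, to TGGGAA (the core bound by Rbpj), GTGGGAA (its longer form, which contains the core), CACNAG (the N-box bound by Hes proteins) and CACGTG (an E-box bound by Hes and Hey proteins).
Notch1, chr2:26503773-26504072, minus strand: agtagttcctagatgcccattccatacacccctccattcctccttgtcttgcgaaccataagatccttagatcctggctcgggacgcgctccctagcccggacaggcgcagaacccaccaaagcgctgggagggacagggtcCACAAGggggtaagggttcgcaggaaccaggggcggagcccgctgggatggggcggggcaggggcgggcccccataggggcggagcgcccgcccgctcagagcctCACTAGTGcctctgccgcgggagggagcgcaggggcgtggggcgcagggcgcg
Jag1, chr2:137116471-137116770, minus strand: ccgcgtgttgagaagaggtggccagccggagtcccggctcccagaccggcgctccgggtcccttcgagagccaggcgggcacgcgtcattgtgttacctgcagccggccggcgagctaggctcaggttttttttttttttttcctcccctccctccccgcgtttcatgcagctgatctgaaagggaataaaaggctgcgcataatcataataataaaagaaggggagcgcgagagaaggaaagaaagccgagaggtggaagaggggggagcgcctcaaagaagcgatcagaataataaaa
Hes5, chr4:154960673-154960972, plus strand: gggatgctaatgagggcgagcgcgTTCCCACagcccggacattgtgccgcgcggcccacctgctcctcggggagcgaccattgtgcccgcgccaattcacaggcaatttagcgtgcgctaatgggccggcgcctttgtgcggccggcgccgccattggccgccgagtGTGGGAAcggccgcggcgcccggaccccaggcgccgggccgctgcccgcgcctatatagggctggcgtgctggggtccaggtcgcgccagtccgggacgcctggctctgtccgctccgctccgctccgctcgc
The Hes5 promoter held GTGGGAA at position -226 on the opposite strand and at -83 on its own strand, counted from the start site. Of 32851 RefSeq promoters of this length, 6.38% held GTGGGAA at least once and 0.256% held it at least 2 times. The Notch1 promoter held CACNAG at 3 positions, 2 of which overlap in the letters CACTAGTG at the start site, and neither form of the Rbpj motif. None of the 4 motifs was found in the Jag1 window. CACNAG was present in 42.5% of all promoters, TGGGAA in 25.6% and CACGTG in 7.15%. Promoters were found for 7 of the 10 genes, and those of Hes1, Hey1 and Heyl were not among them. A match describes letters only.

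The NSC libraries held 2354615 to 2588130 counted reads each, and the S89G-DMP1 and WT astrocyte libraries held 13016924 and 14008670. NSC libraries of different genotypes differed more than libraries of the same genotype, with a chi-square per gene of 3.17 to 4.06 against 1.07 to 1.51. Counting error alone gives about 1 on this scale, so libraries of the same genotype differed little beyond it. Dmp1 had 6, 3 and 5 reads in S89G-DMP1 NSCs, 18, 21 and 16 in WT NSCs, and 119 and 2 in the S89G-DMP1 and WT astrocytes. A count of the gene does not show the point mutation. The NSC libraries carried the progenitor markers Sox2 (747 to 890 reads) and Nes (4572 to 5460 reads). The library labelled WT astrocytes went against its label for part of the astrocyte and progenitor markers. It held 8 reads of the water channel gene Aqp4, 8 of the glutamate transporter gene Slc1a3, 2 of Mlc1 and 30 of Sox2. Other markers of these lists were well counted in it, with 1165 reads of Gja1, 539 of Sox9, 237 of Fgfr3, 9028 of Nes and 1417 of Egfr. In the same library Col3a1 had 14756 reads and Pdgfrb, a receptor of mural cells and fibroblasts, had 11765. The S89G-DMP1 library had 2845 and 2276 reads of them. Col1a1 was closer, with 27329 reads in the WT and 22501 in the S89G-DMP1 library. The endothelial cadherin gene Cdh5 had 1917 in the WT library, but the endothelial genes Pecam1, Tie1 and Cldn5 had 16, 1 and 0. Flt1 and Kdr, also of the endothelial list, had 404 and 76 there. The S89G-DMP1 library held 4051 reads of Aqp4 and 3877 of Slc1a3. It also held 35539 reads of the smooth muscle actin gene Acta2, against 9152 in the WT library.

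In NSCs, Jag1 and Notch1 were lower with S89G-DMP1, and 0 of the 8 genes that could be tested were called higher by edgeR, also at an unadjusted p of 0.05 and by DESeq2. Jag1 fell by 0.57 and Notch1 by 0.26 on the log2 scale, and every S89G-DMP1 library lay below every WT library for both genes. The other 6 tested genes, Notch2, Notch3, Dll1, Rbpj, Hes1 and Hey1, did not pass the test. Among all 11194 genes tested, 8.76% were called lower and 7.08% higher at an adjusted p of 0.05 by edgeR, and the CPM values of the genotypes did not overlap for 30.7%. The median log2 fold change of the 8 genes was -0.12, and that of all genes tested was 0.00. Levels are given in CPM, counts scaled to a common library total by TMM, and fold changes are S89G-DMP1 over WT. In bulk RNA a lower level in each cell and fewer cells of a type cannot be told apart.

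Notch1 is the receptor best known for keeping adult neural stem cells undifferentiated. Its level was 344, 315 and 279 CPM in the S89G-DMP1 NSC libraries, and 377, 373 and 371 CPM in the WT libraries. The groups did not overlap, and the S89G-DMP1 libraries were more widely spread than the WT libraries. The means were 313 ± 32.4 CPM (SD, n = 3) and 373 ± 2.96 CPM (SD, n = 3), a log2 fold change of -0.26 ± 0.06 (SE) with an edgeR adjusted p of 0.00108 and a 95% interval of -0.38 to -0.14. The difference was called in all 6 fits that left out 1 library, with log2 fold changes of -0.33 to -0.18. It was not called with limma on the deposited TPM values, where the log2 fold change was -0.29 at an adjusted p of 0.244. Exons of Notch1 (chr2:26457903-26516663, GRCm38, minus strand) overlap 2 noncoding genes of the opposite strand, and the strand setting of the counting is not stated.

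Notch2, a receptor of quiescent stem cells and glia, had 53.1, 50.9 and 45.3 CPM in S89G-DMP1 NSCs and 41.7, 54.0 and 43.1 CPM in WT NSCs. The groups overlapped, and the log2 fold change of 0.10 ± 0.12 (SE) had an edgeR adjusted p of 0.641 and an interval of -0.13 to 0.33. Notch3, the receptor typical of mural cells, had 50.5, 39.8 and 33.3 CPM in S89G-DMP1 NSCs and 37.1, 55.2 and 41.5 CPM in WT NSCs. Its groups also overlapped, and the log2 fold change was -0.12 ± 0.13 (SE), with an edgeR adjusted p of 0.598 and an interval of -0.39 to 0.14.

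Jag1 encodes a ligand made by stem cells, ependymal cells and vessels. It had 51.8, 54.4 and 49.3 CPM in the S89G-DMP1 NSC libraries and 82.2, 80.8 and 67.5 CPM in the WT libraries. All S89G-DMP1 values were below the lowest WT value. The means were 51.8 ± 2.51 CPM (SD, n = 3) and 76.8 ± 8.11 CPM (SD, n = 3), 1.48-fold higher in WT, and the log2 fold change of -0.57 ± 0.10 (SE) had an edgeR adjusted p of 2.09e-05 and a 95% interval of -0.77 to -0.36. Jag1 was called in all 6 fits that left out 1 library, with log2 fold changes of -0.65 to -0.52, but not with limma on log2(TPM + 1), where the log2 fold change was -0.65 at an adjusted p of 0.129. Dll1, a ligand of the Delta-like family that neural progenitors present to each other, had 49.7, 49.6 and 40.1 CPM in S89G-DMP1 NSCs and 48.5, 48.2 and 54.3 CPM in WT NSCs. Its groups overlapped, and its log2 fold change of -0.12 ± 0.11 (SE) had an edgeR adjusted p of 0.553 and an interval of -0.35 to 0.11. With limma on log2(TPM + 1) it was -0.45 at an adjusted p of 0.335.

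**Figure D1:**
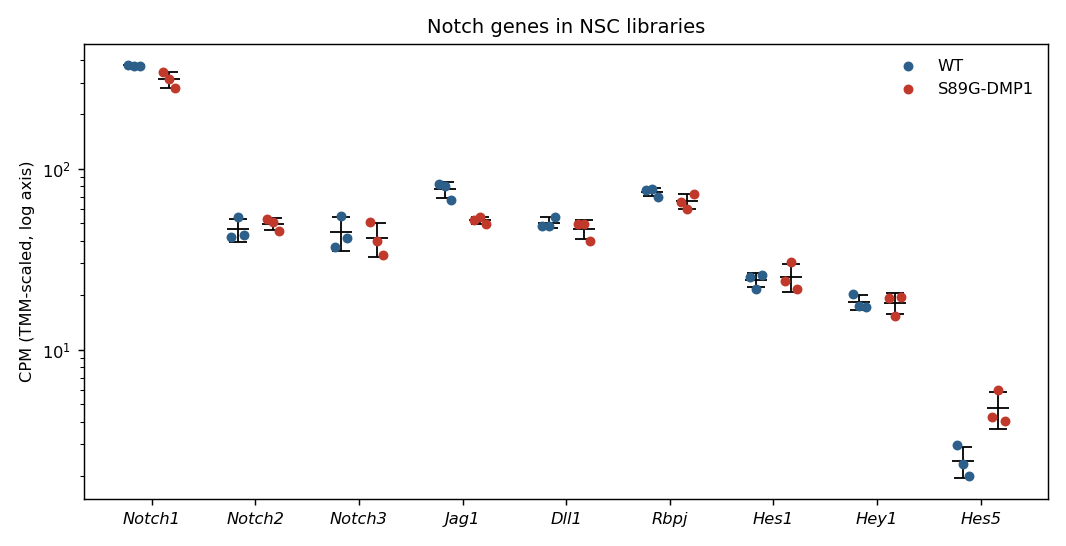
Level of 9 of the Notch genes in each NSC library, in TMM-scaled CPM on a log axis; points are libraries, horizontal marks are means and bars are the SD of 3 libraries. Points of the genotypes are apart for Notch1, Jag1 and Hes5 and overlap for the other genes; Hes5 lies at or under 5.99 CPM and was not tested because of its low counts.

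Rbpj encodes the DNA-binding protein that recruits the Notch intracellular domain. Its level was 65.7, 59.9 and 73.0 CPM in S89G-DMP1 NSCs and 75.9, 76.9 and 69.9 CPM in WT NSCs. The genotypes overlapped through the highest S89G-DMP1 and the lowest WT library, and the log2 fold change of -0.16 ± 0.10 (SE) had an edgeR adjusted p of 0.280 and an interval of -0.36 to 0.03. Its sign depended on the values used, since limma on log2(TPM + 1) gave 0.16 at an adjusted p of 0.779.

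The target genes Hes1 and Hey1, which encode repressors, did not pass the test in NSCs. Hes1 had 24.0, 30.4 and 21.7 CPM in S89G-DMP1 NSCs and 25.3, 21.8 and 26.0 CPM in WT NSCs, a log2 fold change of 0.06 ± 0.16 (SE) with an edgeR adjusted p of 0.862 and an interval of -0.25 to 0.37. Hey1 had 19.4, 15.4 and 19.7 CPM in S89G-DMP1 NSCs and 20.2, 17.5 and 17.2 CPM in WT NSCs, a log2 fold change of -0.01 ± 0.18 (SE) with an edgeR adjusted p of 0.990 and an interval of -0.36 to 0.35. Both genes overlapped between the genotypes, and their intervals reach more than 0.25 on the log2 scale to either side of 0.

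Hes5, the target most closely tied to Notch in neural stem cells, had too few reads for the filter on low counts. There were 10, 14 and 10 reads in the S89G-DMP1 NSC libraries and 7, 6 and 5 reads in the WT libraries. Every S89G-DMP1 library held more reads than every WT library, and the means were 4.74 ± 1.09 CPM (SD, n = 3) and 2.43 ± 0.48 CPM (SD, n = 3). In a fit with no filter the log2 fold change was 0.96 ± 0.40 (SE), with an interval of 0.17 to 1.75 and an edgeR adjusted p of 0.153, which misses the threshold. Exons of Hes5 overlap a noncoding gene of the opposite strand. Heyl, a related target of vessels and muscle, had 0, 0 and 1 reads in S89G-DMP1 NSCs and 1, 0 and 1 reads in WT NSCs, and a difference was not detectable at this depth.

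The other genes of the pathway were described by a list of 61 genes, of which 44 could be tested in NSCs. There were 2 called higher with S89G-DMP1, 3 called lower and 39 not called, or 11.4% called against 15.8% of all genes tested. The median log2 fold change of these 44 genes was 0.01. The CPM values of the genotypes did not overlap for 11 of them, against 3442 of all 11194 genes tested (30.7%). Genes that were not called, such as Dtx1 and Poglut1, were among these 11.

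Of the genes called higher, Lfng encodes the fringe enzyme that adds sugar to Notch receptors and alters which ligands they answer. Its level was 275, 265 and 249 CPM in S89G-DMP1 NSCs and 182, 195 and 204 CPM in WT NSCs, and it rose by 0.44 ± 0.06 (SE) on the log2 scale at an edgeR adjusted p of 1.98e-07. Nrarp, a Notch target that restrains the active complex, had 16, 26 and 28 reads in S89G-DMP1 NSCs and 11, 10 and 12 reads in WT NSCs. It rose by 1.12 ± 0.29 (SE) at an edgeR adjusted p of 0.00395, with a DESeq2 adjusted p of 0.125. The genotypes did not overlap for either gene, as was so for 30.7% of all genes tested. Neither was called with limma on log2(TPM + 1), which gave log2 fold changes of 0.30 for Lfng and 2.14 for Nrarp, at adjusted p of 0.633 and 0.462.

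Of the genes called lower, Ncstn encodes nicastrin, a subunit of the gamma-secretase that releases the receptor's intracellular domain. Its level was 97.3, 100.1 and 107 CPM in S89G-DMP1 NSCs and 147, 132 and 149 CPM in WT NSCs, and it fell by 0.49 ± 0.08 (SE) on the log2 scale at an edgeR adjusted p of 1.56e-06. The call held in all 14 alternatives run for Ncstn, the TPM values among them, whereas Furin and L3mbtl3 had adjusted p of 0.277 and 0.125 with limma on log2(TPM + 1). Furin, the protease that cuts Notch receptors on their way to the surface, had 40.4, 39.8 and 36.9 CPM against 57.7, 53.6 and 57.9 CPM, and fell by 0.53 ± 0.11 (SE) at an edgeR adjusted p of 3.34e-04. L3mbtl3, a repressor that binds Rbpj, had 26.1, 30.0 and 27.3 CPM against 38.3, 43.5 and 39.5 CPM, and fell by 0.54 ± 0.13 (SE) at an edgeR adjusted p of 0.00172, with a DESeq2 adjusted p of 0.0808. No S89G-DMP1 value of these 3 genes reached the lowest WT value. Groups without overlap were found for 30.7% of all genes tested. The exons of Ncstn overlap Copa on the opposite strand. The other 6 tested genes of receptor cleavage in the list, Adam10, Adam17, Psen2, Aph1a, Aph1b and Psenen, were not called.

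A pair of genes below the filter on low counts passed in the fit with no filter, and they were chosen after their values were seen. Maml3, a Mastermind protein of the active complex, had 1, 3 and 1 reads in S89G-DMP1 NSCs and 10, 8 and 12 reads in WT NSCs, with an edgeR adjusted p of 6.70e-04. Dlk1, a noncanonical ligand, had 10, 9 and 5 reads against 0, 3 and 2 reads, with an edgeR adjusted p of 0.00578, and was not called with limma on log2(TPM + 0.1), at an adjusted p of 0.272.

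**Figure D2:**
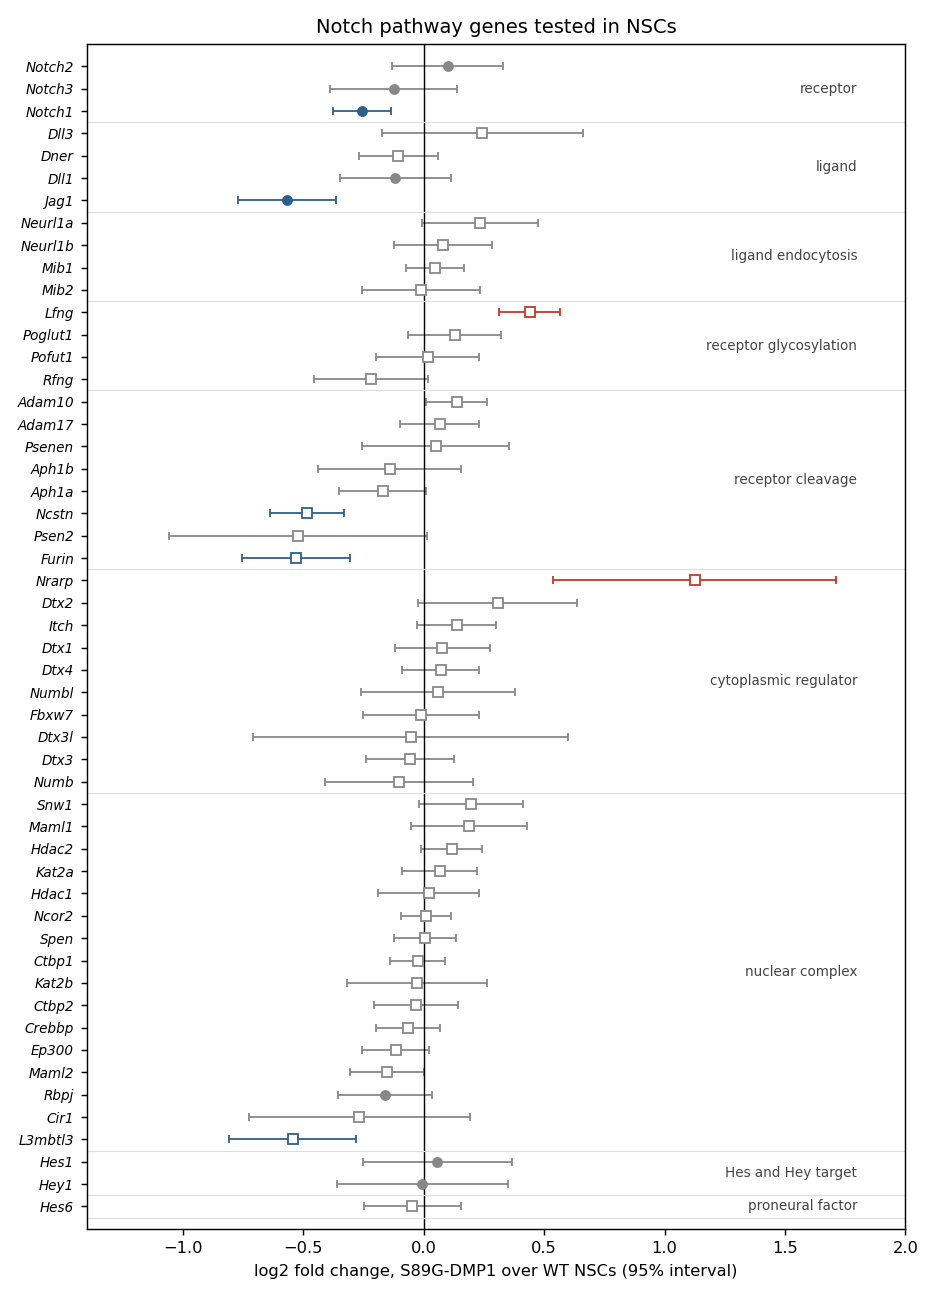
Log2 fold change of each tested Notch pathway gene, S89G-DMP1 over WT NSCs, grouped by role, with 95% intervals; filled circles are the receptors, ligands, Rbpj and targets described here, open squares are other pathway genes, red and blue mark genes called higher and lower by edgeR, and grey marks genes not called. Notch1, Jag1, Furin, Ncstn and L3mbtl3 lie below 0 and Lfng and Nrarp above 0; the other 45 genes were not called.

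Some markers of cell types differed with genotype in the NSCs. Over all genes tested, 7.08% were called higher and 8.76% lower by edgeR. The summed level of 12 astrocyte markers was 2630 to 2690 CPM in S89G-DMP1 NSCs and 1976 to 2026 CPM in WT NSCs. Of the 9 tested, 5 were called higher by edgeR, namely Slc1a3, Aldh1l1, Gja1, Mlc1 and Fgfr3, and none lower. Slc1a2, S100b, Aldoc and Sox9 were not called. Among 9 progenitor markers 3 were called higher, namely Fabp7, Egfr and Hopx. Sox2, Sox1, Nes, Pax6, Msi1 and Prom1 were not called. The sum of the 9 was 4413 to 4488 CPM in S89G-DMP1 NSCs against 4002 to 4215 CPM in WT NSCs. Among 6 tested markers of the oligodendrocyte lineage 2 were called lower, Pdgfra and Cspg4, and the ranges of the sum overlapped. Of the neuronal markers Syt1 was called lower, and of the endothelial markers Flt1 was called higher. Mural markers summed to at most 5.21 CPM and microglial markers to at most 0.86 CPM in any NSC library. The part of these markers in the values of the Notch genes was not tested.

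In the astrocyte cultures, with 1 library for each genotype and so no test, Notch1 and Hey1 were higher in the S89G-DMP1 library, and Jag1 and Rbpj higher in the WT library, each by 2-fold or more. Of the 8 genes with at least 10 reads in either library, the other 4, Notch2, Notch3, Hes1 and Heyl, differed by under 2-fold. Among all 15680 genes with that many reads, 17.3% were higher with S89G-DMP1 and 12.8% lower by this threshold, so differences of this size were common between these libraries. The median log2 ratio was 0.69 over the 8 genes and 0.01 over all genes. The intervals given are exact Poisson intervals and cover counting error only, and no replicate shows how far 2 cultures of a genotype differ.

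Notch1 had 3638 reads in the S89G-DMP1 astrocyte library and 588 in the WT library, or 253 and 46.5 CPM. The ratio was 5.44, with a counting interval of 4.99 to 5.95, and the log2 ratio was 2.44. Notch2 was at 248 and 151 CPM, a ratio of 1.64 (1.55 to 1.73), and Notch3 was at 86.2 and 51.9 CPM, a ratio of 1.66 (1.51 to 1.83). All 3 receptors were thus higher in the S89G-DMP1 library, Notch1 by the most. With library size alone as scaling, Notch2 and Notch3 also reached 2-fold, and the median log2 ratio of all genes was 0.30.

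Jag1 was at 35.8 CPM (515 reads) in the S89G-DMP1 library and 247 CPM (3130 reads) in the WT library, 6.91-fold higher in WT, with a log2 ratio of -2.78. Dll1 had 7 and 4 reads, too few to compare. Rbpj was at 147 CPM (2120 reads) in the S89G-DMP1 library and 635 CPM (8036 reads) in the WT library, 4.31-fold higher in WT, with a log2 ratio of -2.11. With library size alone as scaling the log2 ratios were smaller, at -2.49 for Jag1 and -1.82 for Rbpj. A processed pseudogene of Rbpj held 65 reads over both libraries.

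Hey1, a target that is also strong in vessels, had 594 reads (41.3 CPM) in the S89G-DMP1 library and 52 reads (4.11 CPM) in the WT library, a ratio of 10.0 with a counting interval of 7.56 to 13.6. Hes1 was at 60.2 and 73.1 CPM, with a log2 ratio of -0.28 that became 0.01 when library size alone was used. Heyl had 12 and 6 reads, and its ratio of 1.76 had a counting interval of 0.61 to 5.71, so no difference was detectable at this depth. Hes5 had 0 reads in both libraries, which allows up to 0.257 CPM in the S89G-DMP1 and 0.292 CPM in the WT library. The targets thus went apart, with Hey1 higher, Hes1 within 2-fold and Hes5 not seen.

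**Figure D3:**
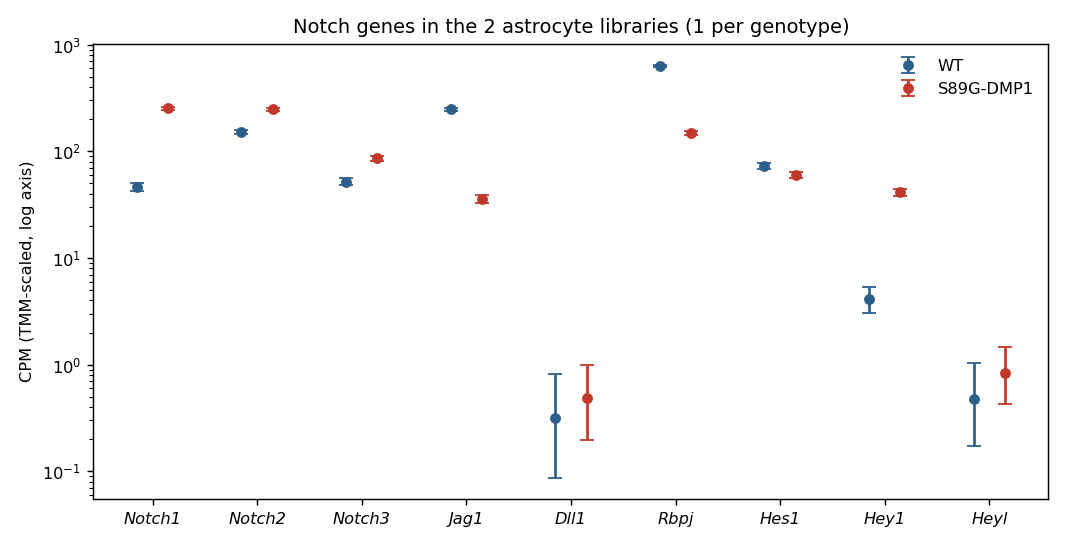
Level of 9 of the Notch genes in the S89G-DMP1 and WT astrocyte libraries, in TMM-scaled CPM on a log axis, with exact 95% Poisson intervals that cover counting error only. Notch1 and Hey1 are higher and Jag1 and Rbpj lower in the S89G-DMP1 library, while the intervals of Dll1 and of Heyl overlap between the libraries; Hes5 had 0 reads and is not drawn.

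Of the 61 other pathway genes 50 had at least 10 reads in either astrocyte library, of which 42 stayed under 2-fold, 5 were higher with S89G-DMP1 and 3 lower. Their median log2 ratio was 0.01. Neurl1b, a ubiquitin ligase that takes ligands into the cell, had 179 and 3 reads, a ratio of 52.5 with a counting interval of 17.7 to 257. Dlk1 was 8.55-fold higher in the S89G-DMP1 library, with 525 and 54 reads.

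Notch4, the receptor of endothelium, was 10.3-fold higher in the WT library, with 58 reads in the S89G-DMP1 library and 523 in the WT library. Dtx1, a deltex ubiquitin ligase that binds the receptors, was 7.22-fold higher in the WT library, with 51 and 324 reads. Pofut1 was the third gene that was at least 2-fold lower with S89G-DMP1, and Lfng, Mfng and Dlk2 completed those that were higher. None of the 9 counted genes of receptor cleavage in the list reached 2-fold in either direction.

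Cell type markers differed widely between the same 2 libraries. The 12 astrocyte markers summed to 1462 CPM in the S89G-DMP1 library and 179 CPM in the WT library, with 10 of 12 higher in the former, and the 9 progenitor markers to 2287 and 846 CPM, with 9 of 9 higher. The 9 fibroblast markers summed to 2124 and 5115 CPM, with 8 of 9 higher in the WT library. The mural markers summed to 4096 and 3364 CPM, of which 6 were higher in the WT library, and the 10 endothelial markers to 74.7 and 197 CPM, with Cdh5 alone giving 152 CPM of the latter, 4 markers higher in the S89G-DMP1 library, 5 higher in the WT library and Cldn5 at 0 in both. The 8 microglial markers summed to 852 and 582 CPM, the 7 neuronal markers to 301 and 97.5 CPM, and the 9 markers of the oligodendrocyte lineage to 378 and 232 CPM. Xist had 74 and 12172 reads and the Y-linked gene Ddx3y 1277 and 0 reads, whereas all 6 NSC libraries held both. Genotype, sex and the mix of cell types cannot be told apart between these 2 libraries.

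The direction of Notch1 was opposite in the cell types, lower with S89G-DMP1 in NSCs (log2 fold change -0.26) and higher in the astrocyte library (log2 ratio 2.44). Jag1 was lower with S89G-DMP1 in both, at -0.57 and -2.78. Rbpj was at -2.11 in the astrocytes and did not pass the test in NSCs, where its sign depended on the values used. Hey1 was at -0.01 in NSCs and at 3.28 in the astrocytes. Of the other pathway genes, Lfng was higher with S89G-DMP1 in both, at 0.44 and 1.56. The 2 cell types share no library, and whether the genotype difference depends on cell type was not tested, because the astrocytes have 1 library for each genotype.

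**Figure D4:**
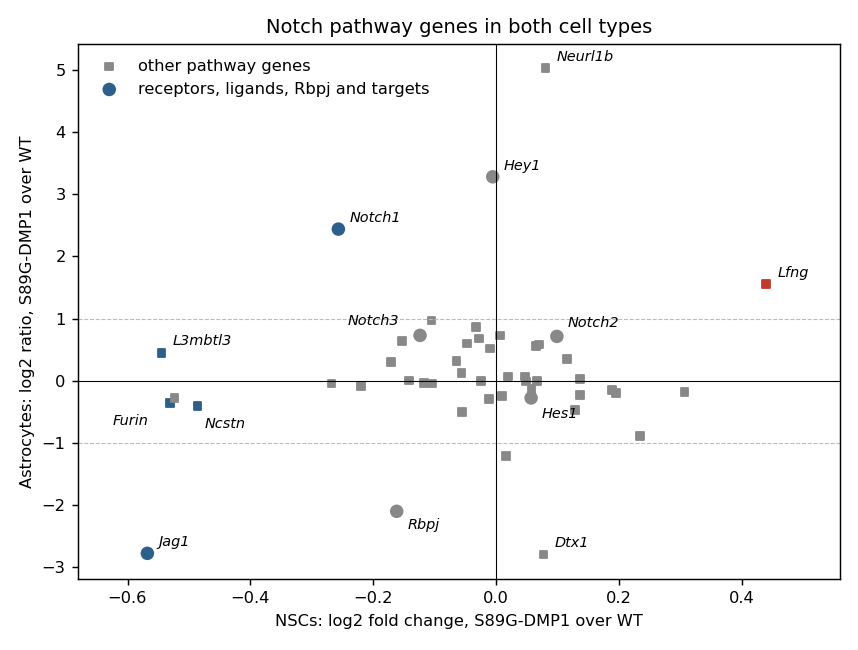
Log2 fold change in NSCs (horizontal) against log2 ratio in astrocytes (vertical), S89G-DMP1 over WT, for 49 pathway genes measured in both, 7 of them from the 10 genes described here; colours mark the NSC call (red higher, blue lower, grey not called) and dashed lines a 2-fold ratio in astrocytes. Notch1 lies at -0.26 and 2.44, and Jag1 at -0.57 and -2.78; the height of Neurl1b depends on the prior count of 2 because the WT library held 3 reads.

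Levels of different genes were compared per length, first with the length per gene that the deposited FPKM values imply. In WT NSCs the order by CPM per kb was Notch1 at 246 ± 1.95 (SD, n = 3), Dll1 at 42.1 ± 2.90, Hes1 at 34.0 ± 3.16, Rbpj at 25.8 ± 1.32, Jag1 at 21.7 ± 2.29, Hey1 at 14.6 ± 1.34, Notch2 at 7.47 ± 1.08, Notch3 at 5.54 ± 1.17 and Heyl at 0.148 ± 0.129. Neighbours in this order were apart in every library except Notch2 and Notch3. Hes5, at 0 in both astrocyte libraries, has no implied length. In S89G-DMP1 NSCs the order was the same, from Notch1 at 206 ± 21.3 CPM per kb to Heyl, with Jag1 at 14.7 ± 0.71 beside Hey1 at 14.5 ± 1.90. There Jag1 and Hey1 overlapped, as did Dll1 and Hes1.

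The implied length of Notch1 was 1519 bases, whereas its merged exons in GENCODE span 14232 bases. The lengths also differed for Dll1 (1196 and 4219 bases), Hes1 (715 and 2037) and Rbpj (2873 and 12750), but hardly for Notch3 (8044 and 8089). The lead of Notch1, the order above and the gaps between neighbours thus rest in part on the implied lengths. The ratio of Notch1 to Notch2 in WT NSCs was 33.4 with implied lengths, 10.6 with the deposited TPM and 6.19 with merged exons, a length chosen after seeing the data. By merged exons Notch1 was still first in WT NSCs, at 26.2 ± 0.21 CPM per kb, followed by Jag1 at 13.2 ± 1.39, Hes1 at 11.9 ± 1.11 and Dll1 at 11.9 ± 0.82, which overlapped from each to the next. In S89G-DMP1 NSCs Jag1, at 8.90 ± 0.43 CPM per kb, stood below Dll1 at 11.0 ± 1.31 with no overlap. Hes5 reached 3.48 ± 0.80 CPM per kb in S89G-DMP1 and 1.78 ± 0.355 in WT NSCs.

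Shares within the receptors and ligands also depended on the length. With merged exons Notch1 made up 68.4%, 69.7% and 70.2% of the 3 receptors in S89G-DMP1 NSCs and 75.8%, 68.9% and 74.1% in WT NSCs, and the genotypes overlapped. With implied lengths its share was 93.8% to 94.1% in S89G-DMP1 NSCs and 94.0% to 95.6% in WT NSCs, again with overlap. With merged exons Jag1 made up 43.0%, 44.2% and 47.1% of Jag1 and Dll1 in S89G-DMP1 NSCs and 55.1%, 54.8% and 47.4% in WT NSCs. With implied lengths these shares were 26.1%, 27.0% and 29.4% against 36.4%, 36.2% and 29.6%. Both lengths kept the genotypes apart, with 1 WT library close to the S89G-DMP1 libraries. Jag1 was above Dll1 only with merged exons, and there in WT NSC libraries 1 and 2 but not in library 3 (47.4%). With the deposited TPM the shares of Jag1 were 35.8%, 37.0% and 37.8% in S89G-DMP1 NSCs and 38.5%, 46.4% and 36.3% in WT NSCs, which overlapped.

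In the astrocytes the order of the genes differed between the lengths. By the deposited FPKM, Notch1 led the S89G-DMP1 library at 184, followed by Hes1 at 93.0, Rbpj at 56.7 and Notch2 at 44.2. In the WT library Rbpj led at 199.7 FPKM, followed by Hes1 at 92.4, Jag1 at 63.2 and Notch1 at 27.6. By merged exons the leading genes were Hes1 at 29.6 and Notch2 at 23.0 CPM per kb in the S89G-DMP1 library, and Rbpj at 49.8 and Jag1 at 42.5 CPM per kb in the WT library. Notch1 was 76.7% of the 3 receptors in the S89G-DMP1 library and 49.8% in the WT library by FPKM, and 34.6% and 13.8% by merged exons. Its share was thus higher in the S89G-DMP1 library with either length, but it led the receptors of each library only by FPKM.

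**Figure D5:**
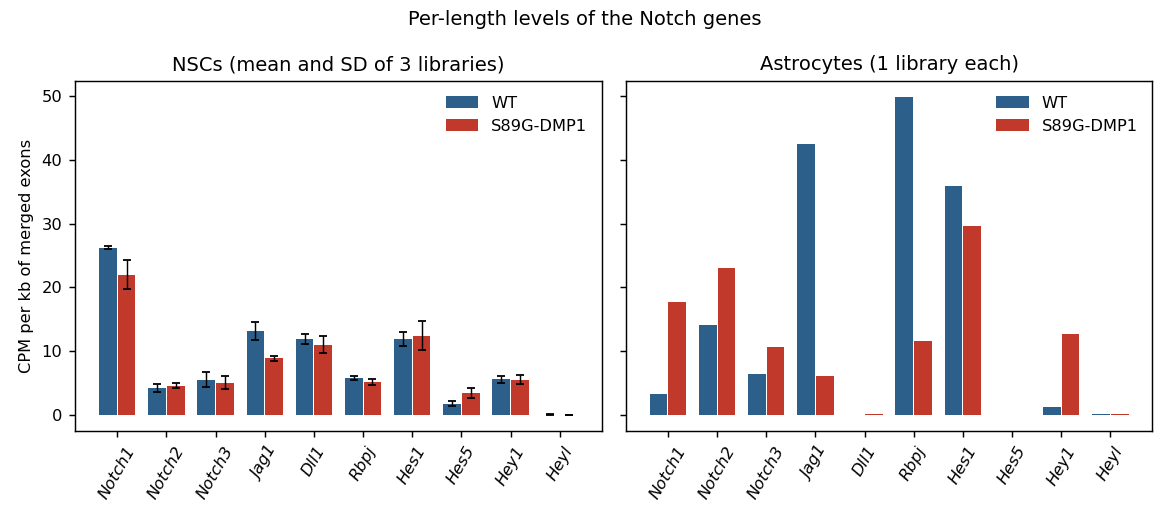
Level of the 10 Notch genes per length, in TMM-scaled CPM per kb of merged exons, in NSCs (left, mean and SD of 3 libraries) and astrocytes (right, 1 library for each genotype and no error). Notch1 leads in NSCs of both genotypes, at 26.2 in WT and 22.0 in S89G-DMP1; by this length Rbpj and Jag1 lead in the WT astrocyte library and Hes1 and Notch2 in the S89G-DMP1 astrocyte library, whereas by the deposited FPKM Notch1 leads the latter at 184. The panels share an axis, but NSC and astrocyte counts were scaled by TMM separately, so bars are not comparable between the panels.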

How the data were processed

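RNA sequencing of mouse NSCs (3 S89G-DMP1 and 3 WT libraries) and cortical astrocytes (1 of each) was examined. Paired-end reads had been cleaned and, per the methods and labels, aligned with TopHat 2.0.9 and Bowtie 2.0.6 for the astrocytes; HISAT2, featureCounts and StringTie are named in the submitters' processing notes. The genome build and annotation are not given in the sources used here. The authors deposited unnormalized gene counts for both cell types, FPKM values for the astrocytes and TPM values for the NSCs. The deposited FPKM are counts divided by library total and by 1 length per gene, for 18713 of 18713 genes compared within 0.1%. The deposited TPM list some well counted genes at 0, so counts were preferred.

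NSC counts were compared in R 4.3.3 with edgeR 4.0.16 (filterByExpr, TMM, quasi-likelihood test, genotype as the only term) with Benjamini-Hochberg adjustment over all genes and a threshold of 0.05; limma 3.58.1 on log2(TPM + 1) and log2(TPM + 0.1), for genes with a mean TPM of at least 1, and DESeq2 1.42.0 were alternatives. The test was tried on counts simulated with the dispersion of these NSC libraries. That trial cannot show error between mice, and its outcome is not reported here. For astrocytes, ratios on the log2 scale were computed from CPM after TMM scaling and a prior count of 2 where either library had at least 10 reads. Positions and merged exons came from GENCODE M21 (GRCm38); 47224 of 47729 NSC and 39973 of 40562 astrocyte gene IDs matched.

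The genes and lists were chosen with earlier results of these data known. All 10 genes are named, with other pathway genes that passed the NSC test or were at least 4-fold apart between astrocyte libraries with at least 50 reads; further names were chosen after their values were seen. Some genes of the pathway are not reported here. Low counts limit Hes5 and Heyl in both cell types, and Dll1 in the astrocytes only.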

Additional observations from a re-analysis of the deposited data

Results flagged for a closer look

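Notch1 differed in opposite directions between the NSC and the astrocyte libraries. It was lower with S89G-DMP1 in every NSC library than in any WT NSC library, with a log2 fold change of -0.26, and higher in the S89G-DMP1 astrocyte library, with a log2 ratio of 2.44. This difference was not tested, because the astrocytes have 1 library for each genotype. The library labelled WT astrocytes also held 8 reads of Aqp4, 8 of Slc1a3, 2 of Mlc1 and 30 of Sox2, beside 14756 reads of Col3a1. Other astrocyte and progenitor markers were well counted in it, such as Gja1 (1165 reads), Sox9 (539) and Nes (9028). Of 12 astrocyte markers 10 were higher in the S89G-DMP1 library, and of 9 fibroblast markers 8 were higher in the WT library. The 2 astrocyte libraries differed in Xist (74 and 12172 reads), so genotype, sex and the mix of cell types cannot be told apart there.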

How the results depend on the processing

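Jag1 and Notch1 were called lower in NSCs with edgeR in all 6 fits that left out 1 library, with other scalings and filters and with DESeq2, but limma on log2(TPM + 1) and log2(TPM + 0.1) called 0 of the Notch genes lower, 0 of the other pathway genes higher and 1 lower, against 2, 2 and 3. At an unadjusted p of 0.05 these limma fits gave 3 Notch genes lower, and 2 other pathway genes higher and 5 lower. The cause was not tested. DESeq2 called 1 other pathway gene higher, Lfng. Over all genes, edgeR called 792 higher and 981 lower, DESeq2 313 and 422, and limma 32 and 70 or 32 and 71. With 1 library left out, the other pathway genes called lower ranged from 3 to 5, with 5 without S89G-DMP1 replicate 2. Same-numbered libraries did not vary together (correlations 0.0393, 0.00141 and -0.00974), and a replicate block left 0 Notch genes called higher and 2 lower, with 829 and 1016 over all genes.

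Of the single-gene values, 99 in NSCs and 21 in astrocytes kept their direction and side of the threshold or stayed within counting error. A further 15 in astrocytes moved beyond counting error with the same sign. These moved away from 0 for Notch1, Notch2 and Notch3 and toward 0 for Jag1 and Rbpj. Signs changed as follows, all for genes that did not pass in NSCs or were under 2-fold in astrocytes. With 1 library left out, log2 fold changes in NSCs ranged from -0.295 to 0.0598 for Notch3, from -0.0915 to 0.160 for Hes1 and from -0.0697 to 0.0957 for Hey1. Hey1 was at 0.00025 with no filter, and Rbpj at 0.16 and 0.17 with log2(TPM + 1) and log2(TPM + 0.1). In astrocytes the log2 ratio of Hes1 became 0.0112 with library size alone, 0.0107 with log2(FPKM + 1) and 0.0108 with log2(FPKM + 0.1). Library size alone gave 4 Notch genes at least 2-fold higher against 2, and 3488 genes higher and 1514 lower against 2713 and 2010. Of the other pathway genes, 5 were at least 2-fold higher, against 8 with library size alone, 8 with log2(FPKM + 0.1) and 2 at a 4-fold threshold. The ratio of Notch1 to Notch2 per length was 33.4, 10.6 with TPM and 6.19 with merged exons.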
